A study of Mus musculus with 2 samples.

Results

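Monocyte, macrophage and granulocyte marker genes were examined in mast cells grown from mouse bone marrow. The 9 genes are Ly6c2, Csf1r, Mrc1, Msr1, C1qb, Ctss, Ly6g, Mpo and Ear2, and each was found by its symbol among the 8139 gene models of the study's expression table. They were picked for the difference between genotypes that the same table shows, so their values are a description of this pair of libraries and carry no test. Expression was measured by RNA sequencing in 1 library of wild type (WT) cells and 1 library of Tet2-/- cells, both from C57BL/6 mice; the sources used here give neither the design of the Tet2 allele nor the age or number of the mice. The product of Tet2 is a dioxygenase that acts on methylated cytosines of DNA. In both genotypes femoral marrow was cultured for 4 to 6 weeks with interleukin-3 at 10 ng/ml and stem cell factor at 5 ng/ml, and the cells used carried the high-affinity IgE receptor and c-Kit at a purity above 97.5%. The design implies a comparison of Tet2-/- with WT cells, and with 1 library of each no difference has a replicate check.

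Mast cells, monocytes, macrophages and granulocytes arise from shared myeloid progenitors in the bone marrow, and each lineage switches on its own surface receptors and granule proteins as it matures. Monocytes and macrophages depend on the receptor encoded by Csf1r and display scavenger and lectin receptors that take up particles. Neutrophil and eosinophil precursors fill their granules with peroxidases and ribonucleases. Mast cells keep Kit and the IgE receptor and are not defined by any of these 9 genes.

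All 9 genes were low in the WT library, at 1.10 RPKM or less, and all 9 were higher in the Tet2-/- library. RPKM divides the reads of a gene by its length and by the size of the library, so levels of different genes can be compared per length. Summed over the 9 genes the level was 3.24 RPKM in WT and 43.1 in Tet2-/-. The Ly6 genes Ly6c2 and Ly6g made up 65.9% of the Tet2-/- sum, and the other 7 genes summed to 1.66 and 14.7 RPKM. The depth, inferred from the spacing of low values, was 31100000 fragments in WT and 32100000 in Tet2-/-. In a bulk library more cells of a type and more RNA per cell cannot be told apart.

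The genes lie on 8 mouse chromosomes, and the stretch of DNA just before the start site is shown for 4 of them because they share a short motif there. The sequences are from RefSeq on build GRCm38.p6, are printed 5′ to 3′ on the strand of the gene, and cover the 250 bases before the annotated start site. Capitals mark AGGAAGT or its reverse complement, the core bound by the myeloid transcription factor PU.1 and by other ETS factors. Ly6c2 is at chr15:75111972-75112221, minus strand, Ly6g at chr15:75155011-75155260, plus strand, C1qb at chr4:136886201-136886450, minus strand and Mrc1 at chr2:14229164-14229413, plus strand.
Ly6c2: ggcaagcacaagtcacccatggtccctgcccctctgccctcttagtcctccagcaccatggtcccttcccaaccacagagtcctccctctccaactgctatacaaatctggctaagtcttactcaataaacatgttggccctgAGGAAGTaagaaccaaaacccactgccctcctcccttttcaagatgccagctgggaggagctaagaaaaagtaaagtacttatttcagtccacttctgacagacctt
Ly6g: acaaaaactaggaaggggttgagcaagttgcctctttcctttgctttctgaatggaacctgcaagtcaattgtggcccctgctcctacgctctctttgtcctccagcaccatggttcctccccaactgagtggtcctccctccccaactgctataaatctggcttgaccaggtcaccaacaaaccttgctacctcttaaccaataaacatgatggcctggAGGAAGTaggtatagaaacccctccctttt
C1qb: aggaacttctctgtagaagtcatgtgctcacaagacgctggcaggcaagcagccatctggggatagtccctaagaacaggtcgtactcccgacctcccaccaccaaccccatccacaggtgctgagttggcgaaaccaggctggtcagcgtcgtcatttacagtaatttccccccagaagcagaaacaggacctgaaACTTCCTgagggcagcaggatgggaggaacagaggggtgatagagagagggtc
Mrc1: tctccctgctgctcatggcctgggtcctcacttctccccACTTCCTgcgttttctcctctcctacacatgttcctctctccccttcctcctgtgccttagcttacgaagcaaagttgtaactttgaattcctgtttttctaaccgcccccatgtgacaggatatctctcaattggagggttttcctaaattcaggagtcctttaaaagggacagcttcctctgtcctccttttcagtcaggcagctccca
The match began 107 bases before the start site in Ly6c2, 30 in Ly6g, 53 in C1qb and 211 in Mrc1. RefSeq sequence was found for 7 of the 9 genes, Csf1r and Msr1 having no entry used here. AGGAAGT on either strand was present in 5 of the 7, the fifth being Mpo, and in 8.8% of the windows of 27025 genes. Ctss and Ear2 did not hold these letters in the window. The shorter ETS core GGAA, which AGGAAGT contains, was in all 7 and in 94.2% of genes. The C/EBP-like pattern TTNNGNAA was in 4 of the 7, Ly6c2, Mrc1, Ly6g and Ear2, and in 40.3% of genes. TGTGGT, the letters of RUNX factors, was in 1 of the 7, Ly6c2, and in 15.9% of genes, and the AP-1 letters TGANTCA were in 0 of the 7 and in 7.82%. The TATA box letters TATAAA were in Ctss and Ly6g and in 14.3% of genes. A gene with several annotated start sites counted if any of its windows held the letters. A match describes the letters and not a bound site. The Ly6c2 and Ly6g windows resembled each other, with 135 identical bases of 173 aligned, or 78.0%, against 55.0% to 63.5% for the other 20 pairs of these promoters, aligned with free ends. The printed Ly6g and Mrc1 windows run a little past the start of the gene in GENCODE, while those of Ly6c2 and C1qb end before it.

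Among monocyte genes, Ly6c2 stood highest in the Tet2-/- library. It encodes a lipid-anchored surface protein of the Ly6 family that marks inflammatory monocytes (chromosome 15, 75108158 to 75111970, mm10, minus strand, 4 exons in its longest transcript). Its level was 0.479 RPKM in WT and 18.8 in Tet2-/-, a ratio of 39.3. Estimated fragments numbered 5 in WT and 213 in Tet2-/-, and the exact Clopper-Pearson 95% interval of the ratio was 18.2 to 134. The WT estimate before rounding was 5.48, not near a whole number, so the transcript length that fits is uncertain. With the longest transcript the estimates were 10 and 385 fragments, an interval of 20.5 to 80.3. These intervals hold counting error alone, and PCR copies are not independent molecules. Among 2491 protein-coding genes with a reading in either library, Ly6c2 moved from percentile 25.3 of levels in WT to 67.1 in Tet2-/-, and it ranked 1 for the log2 difference with a pseudocount of 0.1 RPKM. Of its 50-base stretches 14.4% occur in other transcripts, and 13.9% occur in its relative Ly6c1, which was not analysed here, so reads of the pair may be mixed. These shares pool all annotated transcripts of a gene, with 2733 stretches for Ly6c2. Its longest coding transcript used for fragments has 822 bases, so the share within that transcript may be larger.

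Csf1r, the receptor for macrophage colony stimulating factor (chromosome 18, 61100598 to 61132149, plus strand, 21 exons), was at 0.122 RPKM in WT and 1.32 in Tet2-/-. These levels stood for 14 and 156 fragments, a ratio of 10.9 (6.27 to 20.3). Csf1r overlaps Hmgxb3 on the opposite strand over 14.3% of its 50-base stretches, and the sources used here do not say whether the library kept strand. The other 2 listed genes of the colony stimulating factor family were close to equal or without a reading. Csf2rb2, a beta chain of the interleukin-3 receptor and so a receptor for a cytokine in the medium, was at 1787 RPKM in WT and 1670 in Tet2-/-, while the receptor for granulocyte colony stimulating factor, Csf3r, was listed at 0.01 in both.

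In Tet2-/- the endocytic receptors were the least expressed of the monocyte and macrophage genes. Mrc1, the mannose receptor, a lectin that takes up glycoproteins (chromosome 2, 14229392 to 14332057, plus strand, 30 exons), was at 0.0802 RPKM in WT and 0.775 in Tet2-/-, or 13 and 129 fragments. Its ratio was 9.66 (5.44 to 18.6). Msr1, the class A scavenger receptor for modified lipoproteins (chromosome 8, 39581685 to 39642673, minus strand, 9 exons), was at 0.20 and 0.944 RPKM, or 8 and 38 fragments, the smallest ratio of the group at 4.72 (2.14 to 11.6). Before rounding these Msr1 estimates were 7.80 and 37.5, so the transcript length that fits is uncertain. With the longest Msr1 transcript the estimates were 22 and 105 fragments, an interval of 2.91 to 7.73. Neither gene shares a 50-base stretch with another annotated transcript. Other scavenger receptors were nearer to equal, with Scarb1, a lipoprotein receptor, at 17.4 and 24.9 RPKM and Scarf2 at 0.872 and 1.17 RPKM.

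Among secreted and lysosomal proteins, C1qb and Ctss were higher in Tet2-/- as well. C1qb, a chain of the complement starter C1q (chromosome 4, 136880129 to 136886187, minus strand, 3 exons), was at 0.105 RPKM in WT and 1.51 in Tet2-/-. That was 3 fragments against 44, so the ratio of 14.4 has a wide interval, 4.63 to 72.7. Ctss, cathepsin S, a cysteine protease that trims the MHC class II invariant chain (chromosome 3, 95526786 to 95556403, plus strand, 8 exons), was at 1.03 and 8.22 RPKM. It rested on 38 and 309 fragments, and its ratio of 7.98 (5.68 to 11.5) had the narrowest interval, as the upper over the lower bound, of the 8 genes with an estimate.

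**Figure D1:**
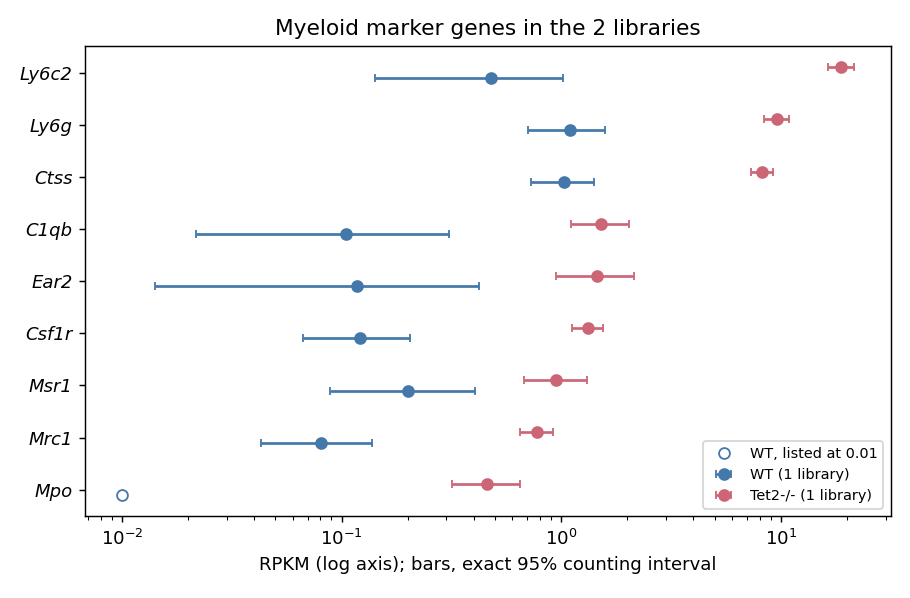
Level of each of the 9 marker genes in RPKM on a log axis, in the WT library (blue) and the Tet2-/- library (red), with exact 95% Poisson counting intervals as bars, taken from the longest transcript for Ly6g. The open point is Mpo in WT, listed at 0.01, and for each of the other 8 genes the bars of the libraries do not meet.

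Granulocyte genes showed the same direction. Ly6g, the neutrophil surface antigen (chromosome 15, 75155240 to 75159126, plus strand, 4 exons), was at 1.10 RPKM in WT and 9.61 in Tet2-/-, a ratio of 8.74. It lies 43.3 kb from Ly6c2. Its shortest transcript was too short for an estimate of fragments, and with the longest one the values stood for 26 and 233 fragments, an interval of 5.89 to 13.8. The WT estimate before rounding was 26.4, not near a whole number, so the length that fits Ly6g is uncertain. Transcripts of Ly6c2 and Ly6g have 0 stretches of 50 bases in common, and 0.448% of the Ly6g stretches occur in any other gene, so sharing of reads between the pair needs stretches shorter than that or mismatches.

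Mpo, myeloperoxidase of neutrophil precursor granules (chromosome 11, 87793581 to 87804413, plus strand, 14 exons), was listed at 0.01 in WT and was at 0.458 RPKM in Tet2-/-, where it stood for 33 fragments. Before rounding that estimate was 32.7, so the length that fits Mpo is uncertain too. The value 0.01 fills 58.1% of the WT column and was read as no fragments, a reading that is uncertain, so no ratio is given. If it holds, a count of 0 allows up to 3 fragments, or 0.0431 RPKM, for Mpo in WT. Ear2, an eosinophil-associated ribonuclease (chromosome 14, 44102654 to 44103534, plus strand, 2 exons), was at 0.117 and 1.45 RPKM. It rested on 2 and 25 fragments, a ratio of 12.4 (3.10 to 108). Ear2 had the largest share when all annotated transcripts of a gene were pooled, with 41.5% of its 50-base stretches also in other genes. Among these were Ear10 with 26.0% and Ear1 with 23.6%.

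**Figure D2:**
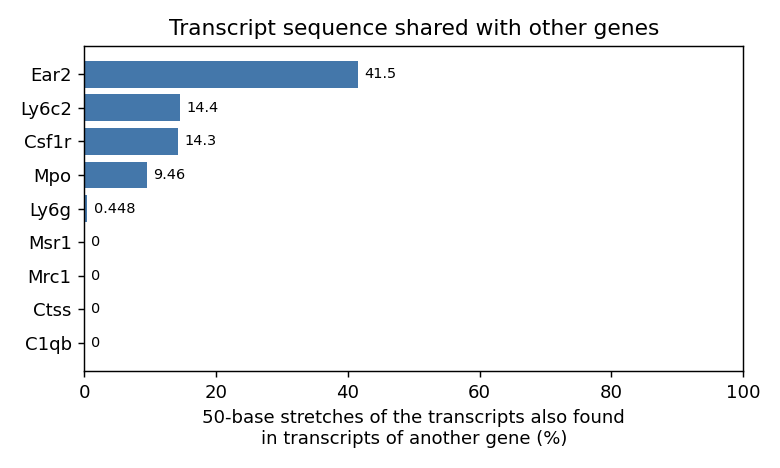
Share of each gene's 50-base transcript stretches, in percent, that also occur in a transcript of another annotated gene on either strand. Stretches are pooled over all annotated transcripts of the gene, so the share within a single transcript may differ. Ear2 stands highest at 41.5%, followed by Ly6c2 at 14.4%, Csf1r at 14.3% and Mpo at 9.46%, while C1qb, Ctss, Mrc1 and Msr1 share none.

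The order of levels was clearer in Tet2-/- than in WT. In Tet2-/- the order was Ly6c2, Ly6g, Ctss, C1qb, Ear2, Csf1r, Msr1, Mrc1 and Mpo. Only Ly6c2 over Ly6g and Ctss over C1qb were steps at which neighbours' exact Poisson counting intervals did not overlap. The step from Ctss to C1qb set apart 3 genes between 8.22 and 18.8 RPKM from 6 genes between 0.458 and 1.51 RPKM. In WT the intervals of the 7 pairs of neighbours from Ly6g to Mrc1 overlapped, and the upper limit of 0.0530 RPKM for Mpo lay above the lower bound of Mrc1, 0.0428 RPKM. Estimated fragments of the 8 genes with an estimate came to 83 in WT and 947 in Tet2-/-.

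Differences of log2(RPKM + 1) are compressed for low genes. A model counted as higher or lower when this difference was at least 1 in size and its mean level reached 1 RPKM. Of the 9 genes 3 had that mean, Ly6c2, Ly6g and Ctss, and all 3 were higher, with log2 differences of 3.74, 2.34 and 2.18, against 2.9% of 2107 models. Of these models 61 were higher and 34, or 1.61%, were lower, and 0 of the 9 genes were lower. At 4-fold the same 3 genes counted as higher, against 1.28% of models, with 0.475% of models lower. The members were chosen on this contrast, and nothing is read from that count. The other 6 had log2 differences of 1.19 for C1qb, 1.13 for Ear2, 1.05 for Csf1r, 0.72 for Mrc1, 0.70 for Msr1 and 0.53 for Mpo. With no filter on the mean 6 of the 9 counted as higher, against 0.835% of 8139 models, and 0.516% were lower. With a pseudocount of 0.1 RPKM and a mean of 0.2 RPKM or more all 9 did, against 6.2% of 2614 models, and 3.86% were lower. Of the 8 genes with a fragment estimate, all 8 had a counting interval above 1, against 23.6% of 2478 protein-coding genes. Among 779 protein-coding genes in the members' range of mean levels the share was 23.9%. An interval wholly above 4 was found for 6 of the 8, Ly6c2, Csf1r, Mrc1, C1qb, Ctss and Mpo (read as 0 fragments in WT), against 2.44% of those genes. The 11 protein-coding genes below 0.3 RPKM in WT and at 1 RPKM or more in Tet2-/- included 3 of the 9, Csf1r, C1qb and Ear2, and 8 genes showed the reverse, at limits chosen after the values were seen. The median log2 difference with a pseudocount of 0.1 RPKM was 2.84 over the 9 genes and -0.002 over 783 other protein-coding genes whose mean lay within the range of the 9, from 0.234 to 9.65 RPKM. The 9 genes were picked for their difference, and their own means set the range. A gap from other genes was thus given by the choice, and nothing is read from it or from the shares above.

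**Figure D3:**
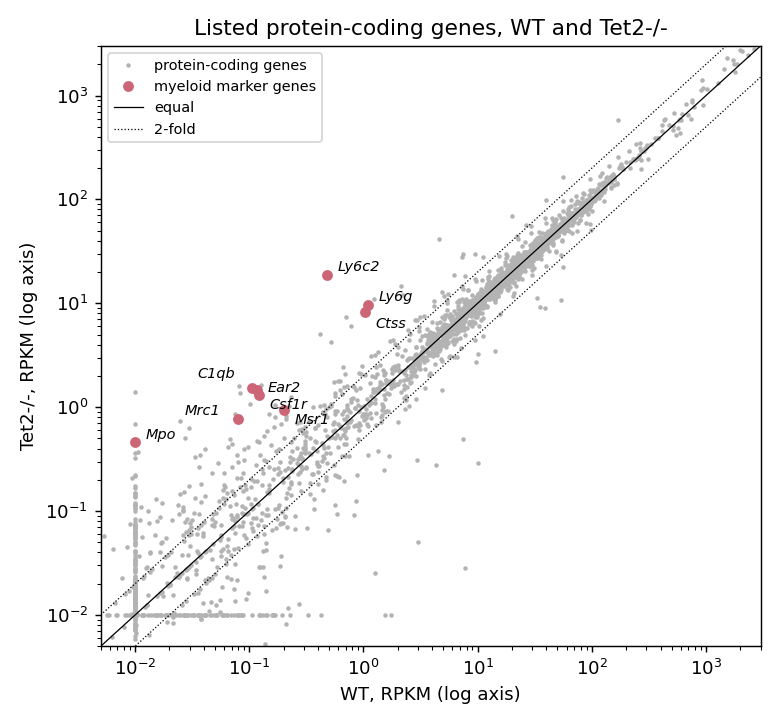
WT against Tet2-/- RPKM on log axes for the listed protein-coding genes (grey) and the 9 marker genes (red), 1 library each, with a solid line for equal levels and dotted lines for 2-fold. The 9 marker genes lie above the upper dotted line, with Ly6c2 farthest from it, at 0.479 and 18.8 RPKM, among the 8 that are above 0.01 in WT, and the row and column of grey points at 0.01 are genes listed at that value. Genes outside the axes are not drawn.

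Few genes next to the members on the chromosome had a level that could be compared. Within 200 kb of the 9 genes 13 other models were listed, of which 5 were at 0.01 in both libraries and 4 more were below 1 RPKM in both, where a log2(RPKM + 1) difference of 1 is hardly reached. With no filter 0 of the 13 reached that difference, against 0.835% of all models higher and 0.516% lower, so the count says nothing particular about these neighbours. The largest was 0.35, for the pseudogene Gm42672 beside Ctss, at 0.350 and 0.720 RPKM. Slc26a2, a sulfate transporter gene beside Csf1r, was at 3.25 RPKM in WT and 3.44 in Tet2-/-. Beside Ctss, the survival gene Mcl1 was at 86.5 and 82.6 RPKM, Ensa at 42.1 and 43.03 RPKM and Tars2 at 27.9 and 25.5 RPKM. Gm11505, which overlaps Mpo on the opposite strand, was listed at 0.01 in both libraries.

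Other genes of the same lineages and families were taken from lists, of which 48 of 281 distinct genes were in the table. Of 25 monocyte and macrophage markers 8 were listed, 6 of them members. Clec4d, a lectin receptor and no member, was at 1.16 RPKM in WT and 3.08 in Tet2-/-, and its ratio was 2.66 (1.88 to 3.97). The 8 summed to 3.24 RPKM in WT and 35.1 in Tet2-/-, with none at 0.01 in both. Without the 6 members the sums were 1.23 and 3.52 RPKM, and the median log2 difference was 0.67 with no filter. The filter on the mean left 3, Ly6c2, Ctss and Clec4d, of which 2 counted as higher and 0 as lower, with a median log2 difference of 2.18 against 0.01 over the 2107 models that passed. Ly6c2 and Ctss are members picked on this contrast, and Ly6c2, at 0.479 RPKM in WT, reached the mean through Tet2-/-. Nothing is read from sums, medians and counts that hold members, here or in the lists below. Beside the list counts, 2.9% of the 2107 models that passed were higher and 1.61% were lower.

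Granulocyte lists were less uniform. Of 19 neutrophil and granulocyte precursor markers 4 were listed, summing to 1.13 and 10.1 RPKM, and the defining genes Csf3r and Fcnb, a ficolin of neutrophil granules, were at 0.01 in both libraries. Ly6g, a member picked on this contrast, alone of these passed the filter, with a log2 difference of 2.34. Of 11 eosinophil markers Ear2 and Il5ra were listed, summing to 0.829 and 2.27 RPKM, and neither passed the filter. Il5ra, the interleukin-5 receptor of eosinophils, had 0.712 and 0.820 RPKM, and its ratio of 1.15 had an interval of 0.710 to 1.87 that included 1. The basophil marker Mcpt8, a serine protease and the 1 listed gene of 6, was at 56.1 and 163 RPKM, a log2 difference of 1.52.

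Families of the members gave few listed genes. In the cathepsin and inhibitor list 3 of 23 were listed, 2 passed the filter and 1, Ctss, was higher, with a median log2 difference of 1.26. Ctsh, another lysosomal cysteine protease, was at 0.126 RPKM in WT and 1.65 in Tet2-/-, and its ratio was 13.1 (5.44 to 34.8). The protease inhibitor gene Cst7 was at 413 and 520 RPKM. In the mannose receptor and C-type lectin list 5 of 14 were listed, and 3 passed with a median of 0.92 and none at 2-fold on that scale. These were Clec4d, Clec4n at 1.27 and 3.17 RPKM, and Clec10a at 7.28 and 14.7 RPKM, lectin receptors of myeloid cells. Complement had 6 of 32 genes listed, 2 past the filter with a median of 0.21. C3, the central complement protein, had 0.0650 and 0.409 RPKM and a ratio of 6.30 (3.22 to 13.8), whereas C4a was at 8.97 and 8.88 RPKM and C7 at 0.139 and 0.0494 RPKM, with intervals that included 1.

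The remaining lists held little beside the members. Scavenger receptors had 3 of 17 listed and a median of 0.35 over the 2 that passed, and the colony stimulating factor list had 3 of 14 and -0.10 for the 1 that passed. Of 20 Ly6 family genes 3 were listed, the third being Ly6h at 0.01 in both libraries, and the median over Ly6c2 and Ly6g was 3.04. In the RNase A family 4 of 22 were listed, and Ear14, Ang6 and Rnase9 were at 0.01 in both, so Ear2 was the 1 gene with a reading. Mpo was the 1 listed gene of 12 haem peroxidases and azurophil granule proteins. Of 25 myeloid transcription factors 5 were listed, with a median of 0.15 over the 4 that passed and 1 higher, Klf2 at 20.1 and 68.5 RPKM. The others that passed were Cebpb with 4.48 and 5.59 RPKM, Irf5 with 1.62 and 1.36 RPKM and Gfi1b with 32.5 and 33.2 RPKM.

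The listed mast cell genes were each above 4 RPKM in WT, where none of the 9 genes passed 1.10 RPKM. Some listed markers of other lineages did pass it, among them Mcpt8 at 56.1 RPKM. Of 27 mast cell markers 7 were listed, and they summed to 3473 RPKM in WT and 3612 in Tet2-/-, none at 0.01 in both. Their median log2 difference was -0.02. By 2-fold 1 was higher, Smpx at 4.18 and 10.5 RPKM, and 0 were lower, against 2.9% and 1.61% of 2107 models. Counting intervals of the ratio lay above 1 for 3 of the 7 and below 1 for 3, against 23.6% and 18.5% of 2478 protein-coding genes. The granzyme B gene Gzmb was at 1770 and 1994 RPKM, Slc18a2, the vesicle amine transporter, at 572 and 491 RPKM, and Fcer1g, the IgE receptor gamma chain, at 594 and 438 RPKM. Kit, Fcer1a, Ms4a2 and Tet2 were not analysed here. Markers of other cells gave 3 of 13 lymphocyte genes, with Ncr1, an activating receptor of natural killer cells and the 1 past the filter, at 0.811 and 1.23 RPKM, and 2 of 15 erythroid and megakaryocyte genes. Of those 2 the embryonic globin Hbb-y was at 2.22 and 12.1 RPKM, and the platelet gene Ppbp was at 0.01 in both. The collagen gene Col1a2, 1 of 10 stromal markers, was also at 0.01 in both, and 0 of 12 dendritic cell and MHC class II markers were listed. Whether cells of other lineages have a part in the levels of the 9 genes was not tested.

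**Figure D4:**
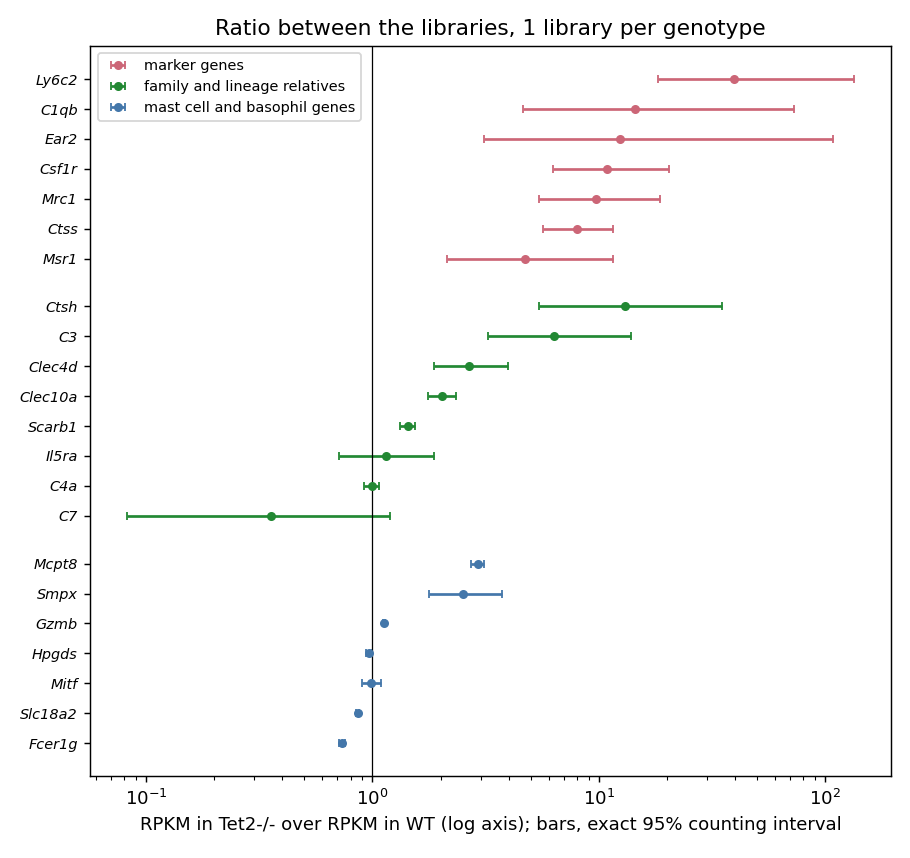
Ratio of Tet2-/- to WT RPKM on a log axis with exact 95% counting intervals, for 7 marker genes with a ratio and an estimate (red), relatives by family or lineage (green) and mast cell and basophil genes (blue), 1 library per genotype. The red ratios run from 4.72 for Msr1 to 39.3 for Ly6c2, the green ones from 0.355 for C7 to 13.1 for Ctsh, and the blue ones from 0.736 for Fcer1g to 2.91 for Mcpt8.

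By the size of the difference, the 6 protein-coding genes nearest the median of the 9 included Prex1, Cyb561, Ctsh and Abcg2. Likeness was the distance between log2 differences with a pseudocount of 0.1 RPKM, over the 2 libraries only, among genes above 0.01 and at most 1.5 RPKM in WT, with at least 0.4 RPKM in Tet2-/- and a transcript of 500 bases or more. Prex1, an activator of Rac GTPases in phagocytes, was at 0.525 RPKM in WT and 4.27 in Tet2-/-. The transporter gene Abcg2 was at 1.25 and 10.9 RPKM, and Cyb561 at 0.0250 and 0.742 RPKM on 1 and 23 fragments. The Cyb561 estimates before rounding were 0.746 and 22.5, so the length that fits is uncertain. A likeness in size over so few libraries describes these values only.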

How the data were processed

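RNA from 1 WT and 1 Tet2-/- mast cell culture was sequenced after an Illumina TruSeq RNA preparation of 1 µg total RNA, per the labels' protocols. The authors deposited RPKM values, 1 column per genotype, per the file headers, with mm10 as the build, per the submitters' processing notes. The aligner, counter and annotation were not given in the sources used here. Some 58.1% of WT and 57.4% of Tet2-/- entries equal 0.01, while 67 and 80 values lie below it.

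Gene positions came from GENCODE M21, whose build equals mm10, and 7841 symbols matched exactly 1 model. Depth was inferred from genes with 1 transcript, as the depth at which most values convert to whole fragments, with 170 bases taken off the length in WT and 185 in Tet2-/-. At 31100000 fragments 96.9% of 254 WT values lay within 0.1 of a whole number, and at 32100000 fragments 96.8% of 281 Tet2-/- values did. By chance 20% would do so at a depth and offset fixed beforehand. Depth and offset were chosen here for the largest share, so the 20% is not a test of the fit. A gene's fragments used its shortest basic transcript, and none were estimated where that was under 400 bases. A fold of 2 replaced a test. The members and the lists were chosen with earlier results of these data known. The text names the 9 members, listed family and lineage genes, neighbours within 200 kb and the 6 genes nearest in difference; Ncr1, Hbb-y, Ppbp and Col1a2, from other marker lists, were chosen after their values were seen. Some genes that this rule names are not reported here. The alternatives were other pseudocounts, filters, a median-ratio scaling, a 4-fold threshold and longest transcripts. Intervals came from scipy 1.17.1, tables from pandas 2.3.3 with numpy 2.4.6 and plots from matplotlib 3.10.9, under Python 3.11.15.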

Additional observations from a re-analysis of the deposited data

How the results depend on the processing

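All 9 marker genes kept their direction under each pseudocount and under median-ratio scaling, where the scaling factor was 0.993 and a pseudocount cannot turn a sign. With a pseudocount of 0.1 RPKM the log2 difference was 5.03 for Ly6c2, 2.68 for Csf1r, 2.28 for Mrc1, 1.80 for Msr1, 2.98 for C1qb, 2.88 for Ctss, 3.02 for Ly6g, 2.34 for Mpo and 2.84 for Ear2. With 5 RPKM it was 2.12 for Ly6c2, 1.13 for Ctss and 1.26 for Ly6g, and below 1 for the other 6, at 0.30 for Csf1r, 0.19 for Msr1 and for Mrc1, 0.35 for C1qb, 0.33 for Ear2 and 0.12 for Mpo. The count of the 9 genes higher by 2-fold was 3, against 2.9% of 2107 models, and 2 with the filter at 5 RPKM. It was 6 with no filter, against 0.835% of 8139 models. With a pseudocount of 0.1 RPKM and a filter at 0.2 RPKM it was 9, against 6.2% of 2614 models. Under each setting 0 of the 9 were lower. The 9 were chosen on this contrast, and nothing is read from these counts. Over all models the counts were 61 higher and 34 lower, and 68 and 42 with no filter. They were 33 and 14 with a pseudocount of 5 RPKM and 40 and 16 with the filter at 5 RPKM. With the lower filter and pseudocount together they were 162 and 101, and 27 and 10 at 4-fold. The lower bound of each ratio stayed above 1 with the longest transcript. Among list medians, with a pseudocount of 0.1 RPKM the monocyte and macrophage list was at 2.88, the neutrophil list at 3.02 and the Ly6 list at 4.02. With 5 RPKM they were at 1.13, 1.26 and 1.69, and the erythroid and megakaryocyte list, at 2.02, moved to 1.24. Over all listed members the 4 medians were 0.98, 0.27, 2.34 and 1.01. No paired analysis was possible because a lone library stands for WT and another for Tet2-/-, which also leaves none to omit. At these depths 1 fragment in a transcript of 2 kb is 0.0176 RPKM, so WT levels near 0.1 RPKM rest on few fragments.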
